A study of Mus musculus with 2 samples.

Results

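The laminin and integrin genes of the P12 mouse optic nerve were compared between control and *Tcf7l2*ΔHMG mice. The members were taken by gene symbol, as every laminin chain named Lama, Lamb or Lamc with a digit and every integrin subunit named Itga or Itgb with its digit or letter. The rule found 37 genes, 11 laminin chains and 26 integrin subunits, among 23951 symbols present in both tables. The rule itself uses no measured value, but the families were chosen with earlier results of these data known. The control library came from optic nerves of genotype Tcf7l2 c/+; OLig1-cre, in which 1 *Tcf7l2* allele carries the floxed exon, and the *Tcf7l2*ΔHMG library from Tcf7l2 c/c; OLig1-cre, in which both do. Cre is driven by *Olig1* and so acts in the oligodendrocyte (OL) lineage, and control animals carry it too. Excision removes the exon for the HMG DNA-binding domain of Tcf7l2 and leaves the rest of the gene in place. Each genotype had 1 library, total RNA was taken from whole nerve, and the number of animals in a library was not given in the sources used here. Differences are therefore described without a test, and variation between animals could not be estimated.

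Laminins are secreted trimers of 1 α, 1 β and 1 γ chain that assemble into basement membranes, the sheets that in the nerve lie under the pia and around blood vessels. Integrins are transmembrane heterodimers of 1 α and 1 β subunit, and the pairs that contain *Itga3*, *Itga6* or *Itga7* bind laminins. In OLs, laminins of the vessel and axon environment acting through the *Itga6* and *Itgb1* pair are known for roles in survival and in process and myelin formation. Other integrins bind collagens, fibronectin or vitronectin, and a further set is restricted to leukocytes and microglia. Meningeal fibroblasts, endothelial cells, pericytes, astrocytes and microglia of the nerve also make these genes, and in whole tissue fewer cells of a type and less RNA per cell cannot be told apart.

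Values are FPKM, fragments per kilobase of transcript at a fixed number of mapped fragments, and so are scaled to transcript length and to depth. The range in parentheses after a value is the Cufflinks interval, which covers sampling within 1 library only. Depths of 27624000 fragments for the control library and 39938000 for the mutant library were inferred from interval bounds of short unnamed rows, as the smallest values that fit. The 14199 genes that reached 1 FPKM in either library, and whose rows Cufflinks marked as OK, were compared. The log2 ratio is that of mutant over control after 0.1 was added to each FPKM, which understates changes of low genes, and a gene was called higher or lower past a fold change of 1.5, a log2 ratio of 0.585. Among all genes compared, 23.9% were called, 15.4% as higher and 8.52% as lower, and the median log2 ratio was 0.05. *Tcf7l2* itself was at 17.8 FPKM in control nerve and 14.6 in mutant nerve, which does not check the genotype because a level summed over the gene does not show the loss of 1 exon in 1 lineage. The myelinating OL markers were lower in the mutant, with a summed level of 6441 against 14590 FPKM and 6 of 7 genes called lower.

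Of the 37 members, 32 passed the filter on low values and 7 of these were called (21.9%), beside 23.9% of all genes compared. Laminin chains accounted for 4 of 10 compared (40.0%, 3 higher and 1 lower), and integrin subunits for 3 of 22 (13.6%, 1 higher and 2 lower). *Lama3*, 1 of the 3 higher, passed the filter only through the mutant library. Among the higher members were *Itga10*, *Lama3* and *Lamb2*, and the lower members were *Itgad*, *Itga2b* and *Lama5*. Over both families the share called was close to the background, 12.5% higher beside 15.4% and 9.38% lower beside 8.52%. The ratios at both ends of the intervals stayed past the cutoff for *Itga10*, and for *Lama3*, *Lamb2*, *Itgad*, *Itga2b* and *Lama5* the end nearer to 0 fell short of it. The 5 members below the filter were *Itgae*, *Itgal*, *Itgax*, *Itgb6* and *Lamb3*, with values between 0.019 and 0.671 FPKM.

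*Itga10* had the greatest ratio of the members and *Lamb2* was the most abundant member called. Their promoters are shown because *Tcf7l2* encodes a DNA-binding protein of the TCF family. Each window holds 300 bases, most of them before the start of the gene, from RefSeq in GRCm38.p6 (the nerve tables use mm9, and no position was carried between the builds). Capitals mark CTTTGA or CTTTGT, short forms of the TCF recognition sequence, searched on both strands, so that TCAAAG and ACAAAG also count. The *Lama5* window, from a gene called lower, is shown beside them.
Itga10, chr3:96645334-96645633, plus strand: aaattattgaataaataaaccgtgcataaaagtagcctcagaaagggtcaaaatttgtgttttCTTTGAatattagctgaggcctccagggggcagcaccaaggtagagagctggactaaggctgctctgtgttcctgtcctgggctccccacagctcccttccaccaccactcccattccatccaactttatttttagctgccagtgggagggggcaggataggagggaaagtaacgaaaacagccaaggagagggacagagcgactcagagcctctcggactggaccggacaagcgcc
Lamb2, chr9:108479612-108479911, plus strand: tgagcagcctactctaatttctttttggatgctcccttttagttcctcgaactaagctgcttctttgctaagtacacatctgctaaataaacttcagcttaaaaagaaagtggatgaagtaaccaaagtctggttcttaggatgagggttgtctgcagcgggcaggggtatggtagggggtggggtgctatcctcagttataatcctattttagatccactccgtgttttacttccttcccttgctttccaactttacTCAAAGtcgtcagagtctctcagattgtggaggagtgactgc
Lama5, chr2:180225810-180226109, minus strand: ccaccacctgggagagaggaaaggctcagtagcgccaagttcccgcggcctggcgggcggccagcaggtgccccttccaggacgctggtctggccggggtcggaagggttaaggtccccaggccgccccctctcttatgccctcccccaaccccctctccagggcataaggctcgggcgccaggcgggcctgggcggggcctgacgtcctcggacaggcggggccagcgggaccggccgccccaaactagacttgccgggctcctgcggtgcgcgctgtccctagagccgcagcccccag

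The window of *Itga10* held CTTTGA starting 187 bases before the start site, that of *Lamb2* held TCAAAG starting at base 9 after it, and that of *Lama5* held neither motif. Promoters of 23 members were in the table, in 26 windows, and 7 of the 26 (26.9%) held a motif, beside 31.2% of all 32851 windows of the same length. The share among members was thus not above that of promoters at large, and a match is a description of letters and not a site.

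Among laminin α chains, the summed level was close in both libraries, 57.1 FPKM in control nerve and 57.4 FPKM in mutant nerve, while the composition differed. *Lama4*, the chain typical of vascular basement membranes, was measured at 21.2 FPKM in control nerve (interval 19.9 to 21.7) and 29.3 FPKM in mutant nerve (28.5 to 30.5), a log2 ratio of 0.46 that stayed under the cutoff and was −0.21 with the sum over all rows of each library, unnamed ones included, set equal. *Lama2*, the chain of muscle and peripheral nerve laminin whose loss causes a congenital muscular dystrophy with white matter changes, was at 20.6 FPKM (19.4 to 21.7) and 16.9 FPKM (16.5 to 17.6), a log2 ratio of −0.28. The intervals of these chains overlapped in control nerve and were apart in mutant nerve, where *Lama4* over *Lama2* was 1.73 compared with 1.03 in the control.

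*Lama5*, a chain of mature vascular and epithelial basement membranes, was lower in the mutant, at 4.49 FPKM (4.25 to 4.72) compared with 7.76 FPKM (6.62 to 8.91) in the control. Its log2 ratio was −0.78, and the ratios taken at the ends of the intervals ran from −1.05 to −0.48. The control row of this gene, on chromosome 2 from 179911078 to 179960564 in mm9, was merged with the microRNA *Mir7005*, which had a row of its own in the mutant. *Lama1*, an embryonic and pial chain, was at 6.98 FPKM in control nerve and 5.53 FPKM in mutant nerve (log2 ratio −0.33). The share of *Lama4* in the summed α chains was 37.1% in control nerve and 51.0% in mutant nerve, and that of *Lama5* was 13.6% and 7.83%.

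The 2 abundant β chains had ratios on opposite sides of 0. *Lamb2*, the β chain of mature vascular, synaptic and glomerular basement membranes, was higher in the mutant, at 62.5 FPKM (interval 59.4 to 62.2) compared with 39.4 FPKM (37.2 to 40.0). The log2 ratio was 0.66, between 0.57 and 0.74 at the interval ends, and the mutant FPKM lay above its own interval. When the sum over all rows was set equal, the log2 ratio of *Lamb2* was −0.0071 and that of *Lamb1* was −1.02. *Lamb1*, the β chain that prevails in embryonic laminins, was at 24.5 FPKM (23.5 to 25.6) in control nerve and 19.0 FPKM (17.9 to 19.4) in mutant nerve, a log2 ratio of −0.36. *Lamb2* over *Lamb1* was therefore 1.61 in the control library and 3.28 in the mutant library, a quotient that no scaling of a library can change. The *Lamb2* row covered chromosome 9 from 108382193 to 108392861 in mm9, and no other named row overlapped it.

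The γ chains *Lamc1* and *Lamc3* had a greater FPKM in the mutant and were not called, and with the sum over all rows set equal *Lamc1* had a log2 ratio of −0.44 and *Lamc3* one of −0.18. *Lamc1*, the γ chain of most laminins, was the most abundant laminin gene in both libraries, at 59.0 FPKM (56.5 to 59.3) and 69.2 FPKM (66.6 to 69.1), and its log2 ratio was 0.23. *Lamc3*, a γ chain whose loss in people causes cortical malformations, was at 4.71 FPKM (4.35 to 5.08) in control nerve and 6.57 FPKM (6.17 to 6.97) in mutant nerve, a log2 ratio of 0.47.

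*Lama3* and *Lamb3*, chains known from epithelial basement membranes, were near the lower end of the family. *Lama3* was at 0.596 FPKM (0.504 to 0.686) in control nerve and 1.22 FPKM (1.03 to 1.41) in mutant nerve, a log2 ratio of 0.92. It passed the filter only through the mutant library, where it was high, so its call could hardly have gone the other way, and with a pseudocount of 1 its log2 ratio was 0.48 and no longer past the cutoff. *Lamb3* was at 0.123 FPKM (0.047 to 0.199) and 0.315 FPKM (0.230 to 0.407) and was not called because neither value reached 1 FPKM. The intervals of the libraries were apart for both genes. They made up a small part of the laminin transcripts, with *Lama3* at 1.04% of the summed α chains in control nerve and 2.13% in mutant nerve.

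**Figure D1:**
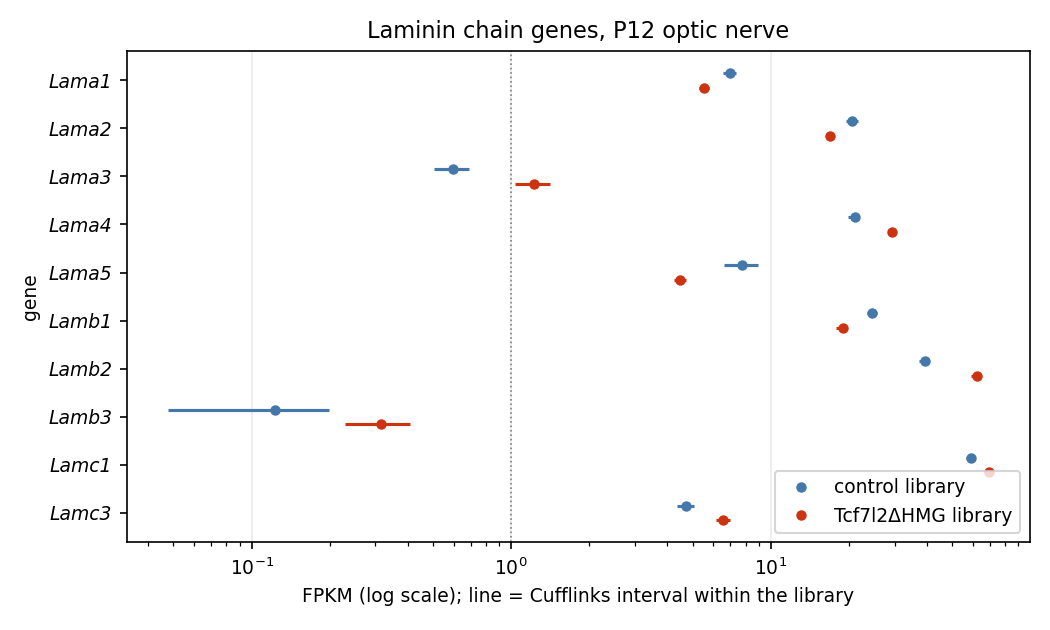
FPKM (x axis, log scale) of 10 laminin chain genes (y axis) in the control library (blue) and the *Tcf7l2*ΔHMG library (red), with the Cufflinks interval of each as a line and 1 FPKM dotted, on the scale as deposited. *Lamc1* was the most abundant in both libraries, *Lamb2* stood to the right of its control value and *Lamb1* and *Lama5* to the left of theirs.

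Summed over all members of a kind, α and β chains were present at 57.1 and 64.0 FPKM in the control library. In the mutant library the sums were 57.4 and 81.8 FPKM. The log2 ratio of the sums was 0.01 for α chains (−0.12 to 0.18 at the summed interval ends) and 0.35 for β chains (0.24 to 0.43). On the deposited scale the β sum thus exceeded that of the control beyond its interval and the α sum did not, but both sums were lower in the mutant when the sum over all rows was set equal. That setting moved the median log2 ratio of all genes from 0.05 to −0.61, and the ratio of the β sums lay above that median in both settings.

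**Figure D2:**
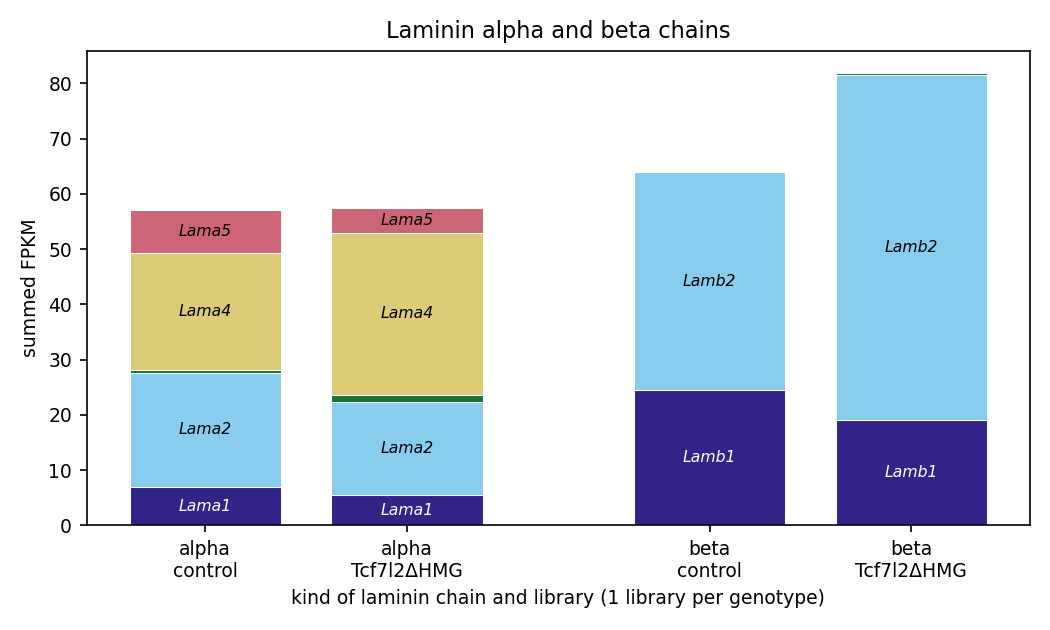
Summed FPKM (y axis, starting at 0) of laminin α and β chains in each library (x axis), with each bar divided by gene, on the scale as deposited. The α bars reach 57.1 and 57.4 FPKM with more *Lama4* in the mutant, and the β bars reach 64.0 and 81.8 FPKM with more *Lamb2* and less *Lamb1*.

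Over the 10 laminin chains compared, the median log2 ratio was 0.35, beside 0.05 for all genes, with 6 ratios above and 4 below that of all genes. *Lama3* is among the 6 and passed the filter only through the mutant library, where it was high. With at least 1 FPKM required in both libraries it dropped out. That left 9 chains, 2 of them called higher, with a median of 0.23, which was 0.20 above that of all genes. The median of the 10 chains stayed 0.28 to 0.30 above the median of all genes under each of the scalings tried. When at least 5 FPKM was required, which leaves 8 of the chains, their median was 0.05 below that of all genes. The intervals of the 2 libraries were apart for 10 of the 10, compared with 52.4% of all genes. None of the 10 had a log2 ratio between −0.2 and 0.2, and the share of all genes within those bounds was not counted.

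Integrin subunits as a family had ratios nearer to 0. The median log2 ratio over the 22 compared was −0.06, and 7 of the 22 lay between −0.2 and 0.2. The share of all genes within those bounds was not counted. The intervals were apart for 11 of the 22, close to the 52.4% of all genes compared. Summed α subunits were at 101 FPKM in control nerve and 106 FPKM in mutant nerve, and summed β subunits at 204 FPKM in each. Whether laminins and integrins differed in their response could not be tested with 1 library per genotype, since genes are not replicates.

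The 5 laminin-binding subunits were all compared and none was called on the deposited scale, beside 23.9% of all genes compared. A set of 5 is too small to tell 0 calls from that share. With the sum over all rows set equal, 4 of the 5 were past the cutoff as lower. In that setting 7398 of 14199 genes were lower and the median of all genes was −0.61. These 5 subunits had a summed level of 189 FPKM in control nerve and 178 FPKM in mutant nerve on the deposited scale. *Itgb1*, the β subunit shared by most matrix receptors, was by far the most abundant integrin gene, at 123 FPKM (interval 115 to 121) and 112 FPKM (106 to 110), a log2 ratio of −0.13. Its FPKM lay above its own interval in both libraries. *Itga6*, the α subunit of the main laminin receptor of OLs, was at 25.9 FPKM (24.97 to 27.1) and 24.9 FPKM (24.3 to 26.0), with intervals that overlapped and a log2 ratio of −0.06. *Itgb4*, which pairs only with *Itga6* and is known from hemidesmosomes and peripheral glia, was at 31.3 FPKM (29.8 to 33.0) and 31.4 FPKM (30.7 to 32.6), a log2 ratio of 0.00.

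The other laminin-binding α subunits were lower in level. *Itga3*, a receptor of epithelial and vascular laminins, was at 5.01 FPKM in control nerve and 6.13 FPKM in mutant nerve (log2 ratio 0.29). *Itga7*, a laminin receptor of muscle, was at 3.72 FPKM and 2.72 FPKM (log2 ratio −0.44), with the row of *Mettl7b*, listed at 0 in both libraries, overlapping its end. *Itgb1* over *Itga6* was 4.75 in control nerve and 4.51 in mutant nerve, close to equal. Another integrin quotient, the collagen-binding *Itga10* over *Itga1*, was 1.13 in control nerve and 3.51 in mutant nerve.

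*Itga10* had the greatest log2 ratio of all 37 members, 1.91, with 1.66 to 2.17 at the interval ends. This gene, known as a collagen receptor of cartilage that pairs with *Itgb1*, was at 4.35 FPKM (3.82 to 4.95) in control nerve and 16.7 FPKM (15.9 to 17.5) in mutant nerve, 3.77-fold higher on the scale with 0.1 added. It was called higher under each of the 16 settings run. Its share of the summed α subunits was 4.30% in control nerve and 15.7% in mutant nerve. The row covered chromosome 3 from 96449507 to 96468442 in control nerve and from 96449450 to 96468514 in mutant nerve, in mm9, and no other named row overlapped it. An unnamed row of 224 bases lay inside it in the mutant library only, at 15.2 FPKM with an interval of 1.90 to 5.14. The other collagen-binding subunits differed much less. *Itga1* was at 3.85 and 4.75 FPKM (log2 ratio 0.30), *Itga11*, a receptor of fibroblasts, at 2.10 and 2.55 FPKM (0.26) and *Itga2* at 1.15 and 0.982 FPKM (−0.21), and the intervals of *Itga11* and *Itga2* overlapped.

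**Figure D3:**
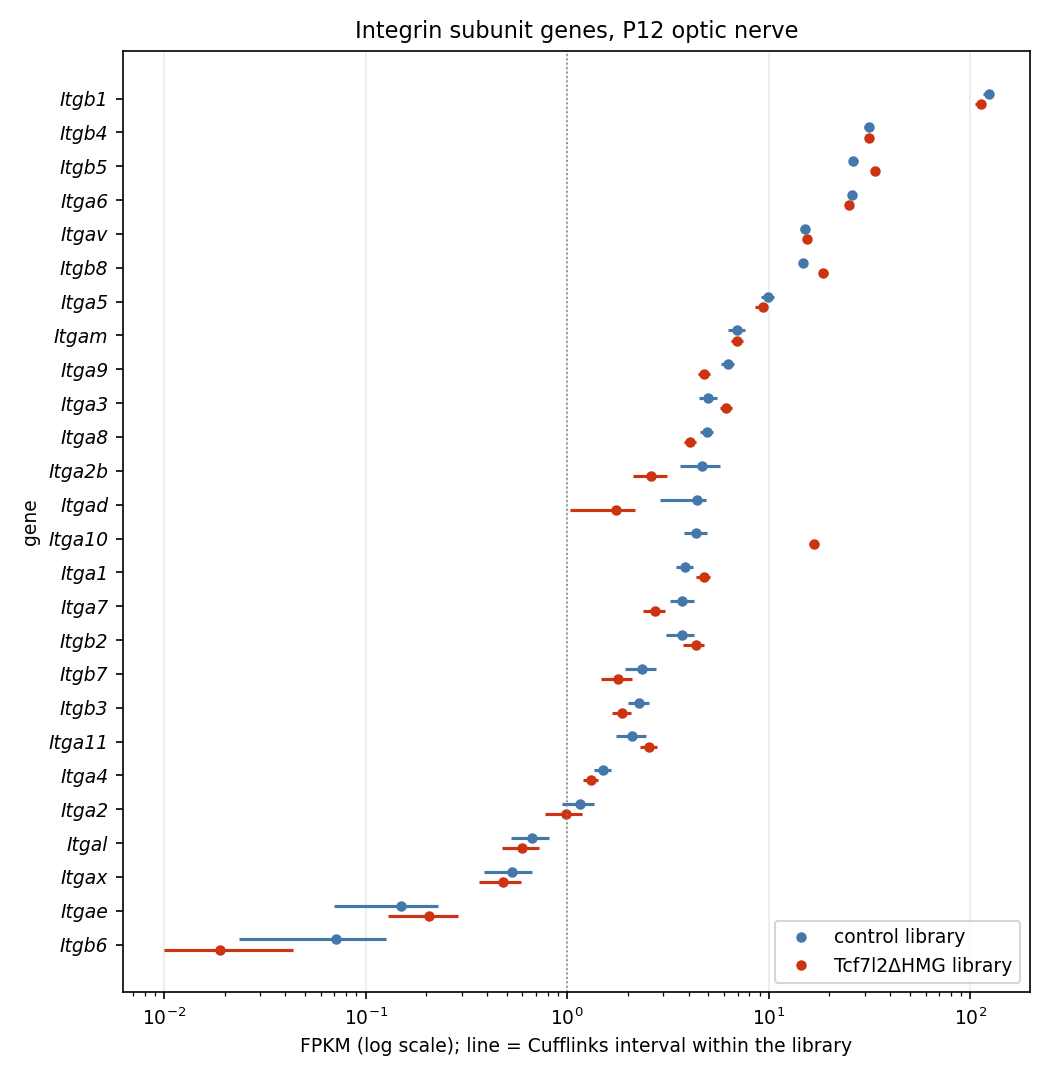
FPKM (x axis, log scale) of the 26 integrin subunit genes (y axis, ordered by control level) in the control (blue) and *Tcf7l2*ΔHMG (red) libraries, with Cufflinks intervals as lines, 1 FPKM dotted and lower bounds under 0.01 drawn at 0.01. *Itga10* had the greatest ratio, at 4.35 and 16.7 FPKM.

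Of the 10 subunits of receptors for fibronectin, vitronectin, tenascin and similar ligands, 9 were compared. Of these, 1 was called, as lower (11.1%, beside 23.9% of all genes compared). *Itgav*, the α subunit that pairs with *Itgb3*, *Itgb5*, *Itgb6* and *Itgb8*, was at 15.1 FPKM in control nerve and 15.4 FPKM in mutant nerve, with overlapping intervals. Its partners *Itgb5*, part of a vitronectin receptor, and *Itgb8*, known for activating latent TGF-β, were at 26.3 and 33.5 FPKM (log2 ratio 0.35) and at 14.7 and 18.7 FPKM (0.34), and for both genes the intervals were apart. *Itga5*, of the fibronectin receptor, was at 9.86 and 9.39 FPKM with overlapping intervals.

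*Itga8*, a receptor of nephronectin, was at 4.93 and 4.08 FPKM (log2 ratio −0.27), *Itga9*, a receptor of tenascin-C, at 6.28 and 4.78 FPKM (−0.39) and *Itga4*, a receptor of VCAM1, at 1.51 and 1.31 FPKM (−0.20). The subunit called lower was *Itga2b*, which with *Itgb3* makes the fibrinogen receptor of platelets. It was at 4.68 FPKM (3.64 to 5.71) in control nerve and 2.62 FPKM (2.13 to 3.12) in mutant nerve, a log2 ratio of −0.81 with −1.38 to −0.22 at the interval ends, on chromosome 11 from 102314611 to 102331197 in mm9. *Itgb3* was at 2.28 and 1.87 FPKM (log2 ratio −0.28) with overlapping intervals. Platelet markers had a summed level of 92.4 FPKM in control nerve and 98.0 FPKM in mutant nerve, with all 6 detected in each, and neither of the 2 that passed the filter was called. These were *Gp1bb*, at 74.0 and 75.9 FPKM, and *Pf4*, at 17.3 and 21.3 FPKM, which hold most of the sum. Without *Gp1bb* the list summed to 18.4 and 22.1 FPKM, most of it *Pf4*, so the sum says little about platelets. *Gp1ba*, below the filter, was at 0.812 and 0.456 FPKM with intervals apart (log2 ratio −0.71). *Gp5* (−0.17) was also below 0, while *Gp9* (0.66), *Pf4* (0.29), *Gp1bb* (0.04) and *Ppbp* (0.02) were above 0. Apart from *Gp1ba*, the intervals of these markers overlapped. The part of platelets in the value of *Itga2b* was not tested.

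Of the 7 leukocyte subunits, 4 were compared. *Itgam*, the α subunit that marks microglia and myeloid cells, was at 6.96 FPKM (6.27 to 7.66) and 6.99 FPKM (6.52 to 7.46), a log2 ratio of 0.00. *Itgb2*, its β subunit, was at 3.69 and 4.38 FPKM with overlapping intervals, and *Itgb7*, a β subunit of lymphocytes, at 2.34 and 1.79 FPKM, also overlapping. *Itgad*, which also pairs with *Itgb2*, was called lower, at 4.40 FPKM (2.90 to 4.89) in control nerve and 1.74 FPKM (1.03 to 2.17) in mutant nerve. Its log2 ratio of −1.29 had the widest range of the members compared, −2.14 to −0.40 at the interval ends. The row of *Itgad*, on chromosome 7 from 135317460 to 135349017 in mm9, overlapped those of *Cox6a2* and *4931431B13Rik*, and whether reads were assigned by strand was not given in the sources used here. *Itgax*, *Itgal* and *Itgae*, subunits of dendritic cells and lymphocytes, were at 0.671 FPKM or less in both libraries. Microglia and macrophage markers had a summed level of 303 FPKM in control nerve and 406 FPKM in mutant nerve, with all 8 detected in each. None was called, beside 23.9% of all genes compared. Of the 8 ratios, 7 were above 0, beside 54.6% of all genes, and the intervals were apart for 6, beside 52.4%.

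**Figure D4:**
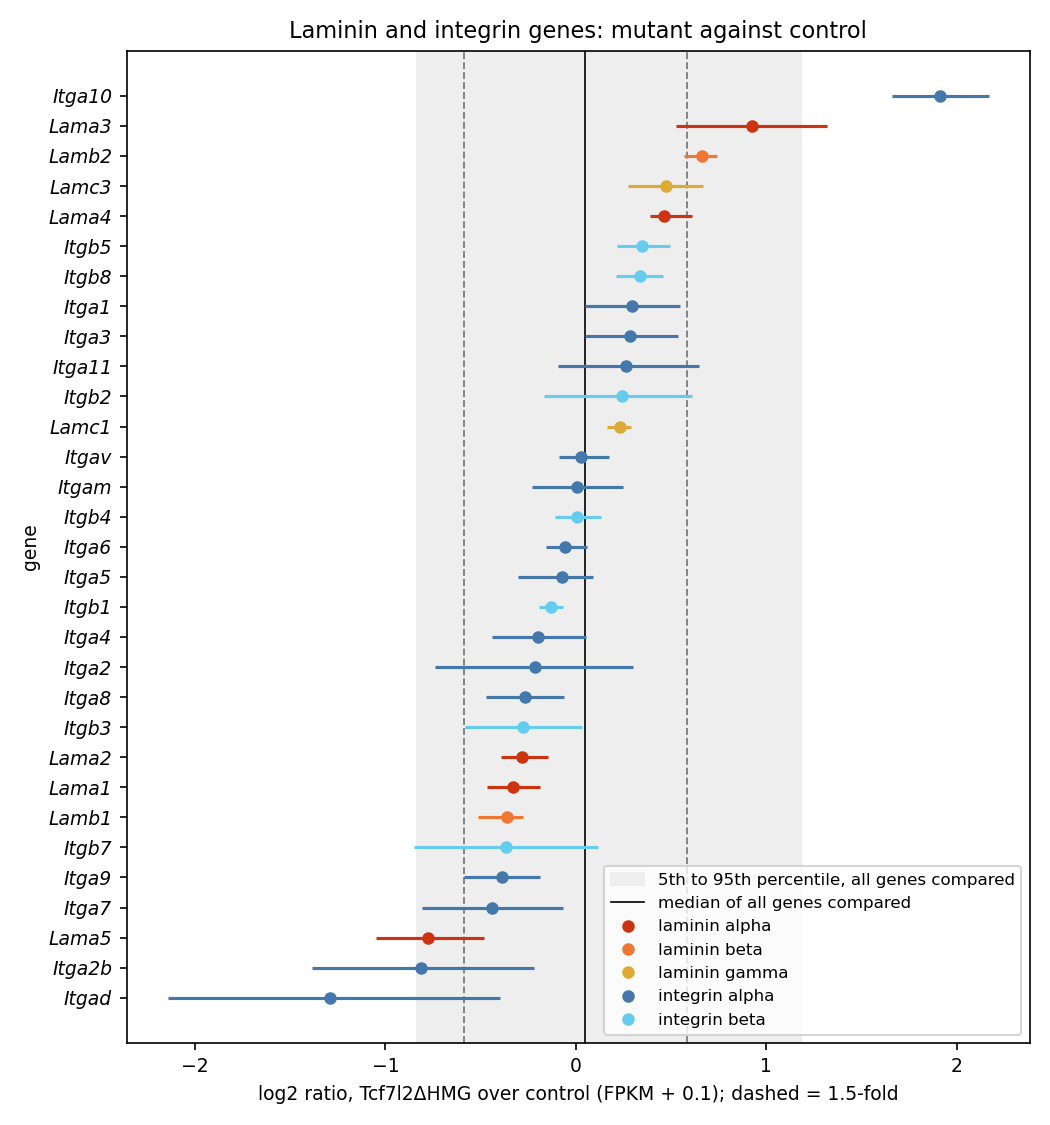
Log2 ratio of *Tcf7l2*ΔHMG over control FPKM plus 0.1 (x axis) for 31 of the members compared (y axis, ordered by ratio), coloured by kind of chain, with lines joining the ratios at the ends of the Cufflinks intervals. Dashed lines mark a fold change of 1.5, the vertical line the median of all genes (0.05) and the grey band their 5th to 95th percentile (−0.83 to 1.18). Of the 6 members drawn past a dashed line, *Itga10* and *Itgad* lie outside the band.

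The genes that work with laminins and integrins were counted in lists, on the deposited scale. Among all genes compared, 23.9% were called on that scale, 15.4% as higher and 8.52% as lower. Of 10 basement membrane partners, 1 was called higher and none lower (10.0% called). It was *Ntn1*, a secreted guidance protein with a laminin-like domain, at 7.48 FPKM in control nerve and 13.3 FPKM in mutant nerve (log2 ratio 0.82), and the most abundant of the list was *Sparc*, a collagen-binding matrix protein, at 992 and 1267 FPKM. Of 10 compared among 11 laminin receptors other than integrins, counting the dystrophin complex, 4 were called higher and 1 lower (50.0% called). *Utrn*, which encodes utrophin, was at 7.22 and 14.8 FPKM (log2 ratio 1.02), *Rpsa*, a ribosomal protein also known as a laminin receptor, at 424 and 846 FPKM (0.995), and *Sgcd*, a sarcoglycan, at 1.85 and 2.99 FPKM (0.67). *Dmd*, which encodes dystrophin, was lower, at 7.44 and 2.68 FPKM (−1.44), while *Dag1*, the dystroglycan that links laminin to this complex, was at 57.8 and 73.7 FPKM (0.35) and was not called.

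Of 27 genes of integrin adhesion machinery, 26 were compared, of which 4 were called higher and 2 lower (23.1% called, beside 23.9% of all genes). *Cd151*, a tetraspanin partner of laminin-binding integrins, was at 74.3 and 141 FPKM (log2 ratio 0.92), and *Tgfb1i1*, a paxillin relative, at 7.75 and 13.7 FPKM (0.82). *Lims2* was listed at 0 in control nerve and at 63.3 FPKM in mutant nerve, and its row contains that of *Gpr17*, so no fold is given. It is 1 of the 4 called higher and passed the filter only through the mutant library. *Parvb*, an actin-binding partner of integrin-linked kinase, was lower, at 105 and 49.8 FPKM (−1.07), as was *Fyn*, the Src family kinase downstream of *Itga6* and *Itgb1* in OLs, at 204 and 132 FPKM (−0.63). *Fyn* was the most abundant of the list in the control library and *Cd151* in the mutant library. Among 17 compared of 18 other integrin ligands, 8 were called higher and 1 lower (52.9% called). *Thbs1* was at 4.58 and 15.8 FPKM (1.76), *Nov* at 73.7 and 199 FPKM (1.44) and *Spp1*, which encodes osteopontin, at 12.7 and 32.3 FPKM (1.34), and *Icam2*, an endothelial ligand of leukocyte integrins, was lower at 7.45 and 4.91 FPKM (−0.59). The most abundant was *Vtn*, which encodes vitronectin, at 160 and 256 FPKM (0.68). Over these lists the median log2 ratio was 0.32, 0.41, 0.05 and 0.44, in the order given.

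Markers of cell types that make laminins moved in different directions between the libraries on the deposited scale. Setting the sum over all rows equal lowers every mutant value against control by a common factor, and the median log2 ratio of all genes to −0.61. The sums below are on the deposited scale. A sum that is lower in the mutant stays lower in that setting, while one that is higher need not stay higher. On that scale 15.4% of all genes compared were called higher and 8.52% lower. The 7 meningeal fibroblast markers had a summed level of 1739 FPKM in control nerve and 2644 FPKM in mutant nerve, with 3 called higher and all 7 detected in each. Endothelial markers had a summed level of 161 FPKM in control nerve and 134 FPKM in mutant nerve, with 1 called higher and 2 lower of 7. The pericyte and smooth muscle list summed to 98.0 and 116 FPKM, with 1 called in each direction. *Tagln*, the one called higher, was listed at 0 in the control library and at 35.3 FPKM in the mutant library, and without it the list summed to 98.0 and 81.0 FPKM, in the opposite direction. Astrocyte markers summed to 4882 and 5702 FPKM, with 1 of 6 called higher. OL precursor markers summed to 350 and 256 FPKM, with 2 of 5 called lower. Of these, *Gpr17*, whose row lies inside that of *Lims2*, was at 235 and 156 FPKM, and without it the list summed to 115 and 100.5 FPKM. The part of these differences in the values of the laminin and integrin genes was not tested.

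Lists for cells of blood and of neighbouring tissue were also read, on the deposited scale. The counts below stand beside 15.4% of all genes compared called higher and 8.52% called lower. Schwann cell markers summed to 11.1 FPKM in control nerve and 9.95 FPKM in mutant nerve, with 1 of 2 compared called lower, which passed only through the control library. *Foxd3*, of that list, was at 0 in the mutant. Skeletal muscle markers summed to 17.1 and 19.996 FPKM, with 1 of 3 compared called higher. The neutrophil and monocyte list summed to 1.63 and 10.6 FPKM, with 3 of 3 compared called higher, 2 of which passed the filter only through the mutant library, and *Elane* and *Mpo* listed at 0 in control nerve. T cell markers summed to 1.29 and 3.71 FPKM, and the 1 compared, called higher, passed only through the mutant library. Retinal pigment and neuron markers summed to 9.96 and 18.001 FPKM, with 3 of 4 compared called higher. These were the neuronal *Rbfox3*, *Syt1* and *Snap25*, of which *Rbfox3* passed only through the mutant library. The pigment gene compared, *Tyr*, was at 2.29 and 2.42 FPKM with overlapping intervals and was not called. *Mlana* was listed at 0 in control nerve and at 0.097 FPKM in mutant nerve. All 5 red blood cell markers compared were called higher, of which *Alas2*, at 0.607 and 1.39 FPKM, passed only through the mutant library. *Hba-a1* and *Hba-a2*, also among the 5, had the same values and intervals, at 88.7 and 228 FPKM, and are not separate measurements. Calls that rest on passing through the library where a gene is high could hardly have gone the other way. The part of these cells in the values of the members was not tested.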

How the data were processed

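RNA from P12 optic nerves of control and *Tcf7l2*ΔHMG mice was sequenced, 1 library per genotype. Per the labels and the methods of the study, the authors aligned reads by TopHat with its defaults, and the deposited FPKM and interval bounds came from Cufflinks, and the submitters' processing notes name mm9. Versions and strand settings are not given in the sources used here. Rows with a comma-merged name (618 and 644 in the control and mutant tables) were split and FPKM was summed per symbol, so genes that share a merged row share its value. Every member had 1 row in each table. FPKM lay outside its own interval in 7.26% of named control rows and 8.64% of named mutant rows with FPKM above 0, and in 1 and 3 of the members. Unnamed rows held 70.7% and 80.7% of summed FPKM. Depth was taken as the smallest value at which bounds of unnamed rows under 100 bases became whole fragment numbers (95th percentile of the distance 0.0025 for control and 0.0007 for mutant). A whole multiple of it could fit as well, so the depths are the smallest candidates. At these depths 3 fragments on 1 kb correspond to 0.109 and 0.0751 FPKM. The lists and cutoff, like the members, were chosen with earlier results of these data known. Members were described one by one, apart from some items that are not reported here and stay in the counts, and in each list at most the 3 genes with the greatest ratio in each direction past the cutoff and the most abundant gene were named, with *Dag1*, *Itgb3* and some cell type markers added as context after their values were seen. Lists covered basement membrane partners, other laminin receptors, adhesion machinery, other integrin ligands, classes of integrin subunits and 14 sets of cell markers. Alternatives were other pseudocounts, filters, scalings, row handling and cutoffs, and the marker sums without *Tagln*, *Gpr17* or *Gp1bb* were added after seeing the data. Python 3.11.15, numpy 2.4.6, pandas 2.3.3 and matplotlib 3.10.9 were used.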

Additional observations from a re-analysis of the deposited data

Results flagged for a closer look

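Unnamed rows, which the comparisons use only for the sum over all rows and for depth, lay inside 3 members in the mutant library and not in the control library. The row inside *Itga10* was at 15.2 FPKM, far above its own interval of 1.90 to 5.14, over 224 bases. The row inside *Lama5* was at 2.96 FPKM over 364 bases, with an interval of 0.825 to 2.55. The row inside *Itga7* was at 0.443 FPKM over 769 bases, with an interval of 0.163 to 0.716. In the control library alone, such a row lay inside *Itgb4*, at 2.72 FPKM over 363 bases. The part of depth in these rows, inferred for the mutant library as 1.45 times that of the control, was not tested.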

How the results depend on the processing

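No paired analysis was possible because each genotype had 1 library, and for the same reason no replicate could be left out. The calls held under most of the 16 settings, *Itga10* in 16, *Lamb2*, *Itga2b* and *Itgad* in 14 each, *Lama5* in 13 and *Lama3* in 11. The 16 include the main setting and some, such as taking the highest row per symbol, that could not change a call of a member. With the median of all genes, the 75th percentile or the sum over named rows set equal, *Lamb2* was at 0.62, 0.61 and 0.59, just past the cutoff of 0.585. Bringing the sum over all rows to the same total in each library moved the most values. It gave 0 laminin chains higher and 4 lower, 15 integrin subunits lower, median log2 ratios of −0.32 for laminins and −0.73 for integrins, log2 ratios of the summed α, β and γ chains of −0.67, −0.32 and −0.40, and −0.0071 for *Lamb2*. The sign of 13 of the 32 members compared changed in that setting, 4 laminin chains and 9 integrin subunits, as the whole distribution moved down, and *Lamb2* was the only called member among them. In each of the other scalings 3 members changed sign, *Itgam*, *Itgav* and *Itgb4*, all with log2 ratios near 0. The share of higher among all calls went from 64.4% to 7.96% in this setting and to between 55.7% and 58.6% in the other scalings. With at least 5 FPKM in 1 library, 1 laminin chain was higher, 0 integrin subunits were lower and the laminin median was −0.027, with 8 laminin chains left. With a fold change of 2, 1 laminin chain was higher and 0 lower, and 1 integrin subunit was lower. With merged names kept, *Lama5* dropped out, which left 0 laminin chains lower and a laminin median of 0.46. Without a filter that median was also 0.46. Leaving out the 9 members whose row overlaps another named row, a setting chosen after seeing the data, gave 0 laminin chains lower, 1 integrin subunit lower and a laminin median of 0.46. Among single members, 422 values over all settings stayed within the range at their interval ends and 34 did not. Settings that changed only a filter, a cutoff or row handling left the ratio of each member as it was. The 422 therefore include many values that could not have moved, and only other pseudocounts and scalings could move a ratio. Over all genes compared, 2185 were higher and 1210 lower, against 640 and 7398 with equal sums over all rows, 975 and 522 with a fold change of 2, and 1290 and 889 with at least 5 FPKM. Depth limits *Itgb6*, *Itgae* and *Lamb3* most, whose FPKM came closest to that of 3 fragments on 1 kb.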

Other observations

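A few genes have names close to the members but are not laminin chains or integrin subunits, and their values were looked up after those of the members. *Itgbl1*, which encodes a secreted protein with repeats like those of β integrins, was at 7.33 FPKM (interval 6.17 to 7.86) in control nerve and 16.5 FPKM (15.5 to 17.7) in mutant nerve, a log2 ratio of 1.16. *Itgb1bp1*, which encodes a protein that binds the tail of the β subunit *Itgb1*, was at 13.7 and 14.2 FPKM with overlapping intervals. *Itgb2l*, a relative of *Itgb2*, was listed at 0 in control nerve and at 0.021 FPKM in mutant nerve.

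Taking the lowest of 3 chains as the limit on a trimer, the laminin of *Lama4*, *Lamb2* and *Lamc1* was bounded by *Lama4* at 21.2 FPKM in control nerve and 29.3 FPKM in mutant nerve. That of *Lama4*, *Lamb1* and *Lamc1* was bounded by *Lama4* in control nerve and by *Lamb1*, at 19.0 FPKM, in mutant nerve. Trimers of *Lama2*, *Lama5* and *Lama1* with *Lamb1* and *Lamc1* were bounded by their α chain, at 20.6 and 16.9, 7.76 and 4.49, and 6.98 and 5.53 FPKM, in that order. These are transcript levels, and assembly of the trimers was not measured.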
